A study of Homo sapiens with 12 samples.

Results

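Eukaryotic initiation factor 3 (eIF3) is built from 13 subunits, each with a gene of its own. The transcripts of 10 of these subunits, EIF3B, EIF3C, EIF3D, EIF3E, EIF3F, EIF3G, EIF3H, EIF3I, EIF3L and EIF3M, were looked up by gene name in the peak lists of RNA immunoprecipitation sequencing (RIP-seq) for METTL16, eIF3a and eIF3b. Of the 10 genes, 9 had a peak in at least 1 list, among 10830 gene names with a peak in any list. They held 56 of the 101848 peaks, and EIF3L had none.

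The study used HepG2 cells, a long-established line grown from a human liver cancer, infected to express stably 3XFlag-METTL16 (from pmiRNA1), 3XFlag-eIF3a or 3XFlag-eIF3b (both from pSIN4), and cross-linked the cells with ultraviolet light before the pull-down. The 12 samples comprised 2 RIP samples per protein, 6 in all, and 6 inputs, the RNA taken before the pull-down. All lines also kept their own eIF3 genes, and no RIP from cells without a tagged protein was analysed here. Per the labels the METTL16 and eIF3b samples were pulled down with a Flag antibody and the eIF3a samples with an antibody to eIF3a, although every list carries flag in its name. By these labels antibody and protein cannot be told apart where eIF3a is compared with the others. A peak is a stretch of exons with more RIP than input reads, called by the authors separately in each RIP sample, and its fold enrichment is RIP over input. Peaks show enrichment over input and not the abundance of an RNA, and the read depth behind them is unknown. The lists held 13199 and 13136 peaks for METTL16, 21733 and 12921 for eIF3a, and 20832 and 20027 for eIF3b, in replicates 1 and 2. Of 7 HepG2 marker genes, 6 had a peak in some list, a count without a matching share over all genes that does not bear on cell identity.

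eIF3 is the largest of the initiation factors and brings the small ribosomal subunit to mRNA. Its PCI subunits (EIF3A, EIF3C, EIF3E, EIF3K, EIF3L, EIF3M) and MPN subunits (EIF3F, EIF3H) form the core, named after domains shared with the lid of the proteasome and with the COP9 signalosome. EIF3B, EIF3G and EIF3I form a module held near the mRNA channel of the ribosome, EIF3D can bind the cap of selected mRNAs, and eIF3 also crosslinks directly to a set of mRNAs, often in their 5′ UTRs. METTL16 is an RNA methyltransferase that acts on U6 small nuclear RNA and on MAT2A mRNA.

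Parts of coding sequence that lay under peaks in the most lists are shown first, because the results turn on where peaks recurred. They are spliced transcript sequences of the coding strand, from the GENCODE canonical transcript on GRCh38. In EIF3B (chr7:2355168-2355347, plus strand, exon 1, coding) the capitals mark the 120 bases that were under a peak in all 6 lists, with 30 bases on either side. In EIF3C (chr16:28714689-28715404, plus strand, exons 6 to 8, coding) the 210 bases were under a peak in 5 lists, and the capitals mark exon 7. In EIF3D (chr22:36510987-36511592, minus strand, exons 14 and 15, coding) the 104 bases were under a peak in 4 lists, and the capitals mark the stop codon.
EIF3B: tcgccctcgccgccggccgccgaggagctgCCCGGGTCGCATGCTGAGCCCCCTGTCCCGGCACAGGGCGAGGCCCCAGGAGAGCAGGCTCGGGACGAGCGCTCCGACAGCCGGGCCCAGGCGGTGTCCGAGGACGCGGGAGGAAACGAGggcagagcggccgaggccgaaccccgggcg
EIF3C: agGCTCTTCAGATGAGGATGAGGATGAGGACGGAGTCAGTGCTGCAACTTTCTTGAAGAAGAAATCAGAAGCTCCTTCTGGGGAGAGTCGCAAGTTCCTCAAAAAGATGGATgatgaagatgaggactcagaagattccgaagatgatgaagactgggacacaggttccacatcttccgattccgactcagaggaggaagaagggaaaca
EIF3D: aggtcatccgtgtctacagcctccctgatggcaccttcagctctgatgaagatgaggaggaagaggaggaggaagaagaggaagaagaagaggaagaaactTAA

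The GC content of the EIF3B stretch in capitals was 75%, against 56.9% for the whole transcript. The EIF3C stretch had a GC content of 47.6%, below the 54.8% of its transcript, and 62.9% purines against 54.8%. The EIF3D stretch had a GC content of 49.0% against 50.9% for its transcript, and 68.3% purines against 53.6%. The EIF3B sequence as printed, with its flanks, had 56.7% purines against 54.0%. The EIF3C and EIF3D stretches were thus alike in GC content, and each of the 3 sequences held more purines than its transcript.

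Presence differed between the genes. EIF3B was the only one of the 10 with a peak in all 6 lists. EIF3C and EIF3I had peaks in 5 lists, all but eIF3a replicate 2. EIF3G had peaks in 4 lists, both METTL16 lists, eIF3a replicate 1 and eIF3b replicate 1. EIF3D also had peaks in 4 lists, both of METTL16 and both of eIF3b. EIF3E and EIF3H had peaks in eIF3a replicate 1 and eIF3b replicate 2. EIF3M had a peak in eIF3b replicate 2 only and EIF3F in METTL16 replicate 2 only.

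Counted over replicates, 5 of the 10 genes (EIF3B, EIF3C, EIF3D, EIF3G and EIF3I) had a peak in both METTL16 lists, where 42.6% of the 10830 genes did. For eIF3b 4 genes (EIF3B, EIF3C, EIF3D and EIF3I) had a peak in both lists, where 60% of all genes did. For eIF3a this held for EIF3B alone, 1 of 10, where 42.4% of all genes had a peak in both lists. EIF3B was also the 1 gene with a peak in all 6 lists, against 25.2% of all genes. The METTL16 count thus stood near the share over all genes, and the other counts below it, without a test of these differences. These shares are of genes with a peak in some list, which EIF3L lacked. Among the 9 eIF3 genes with a peak in some list the counts were the same, 5 for METTL16, 4 for eIF3b, 1 for eIF3a and 1 in all 6. The low eIF3a count came from replicate 2, which had a peak on 1 of the 10 genes, against 6 in replicate 1. Over all 10830 genes, 48.3% had a peak in eIF3a replicate 2 and 75.4% in replicate 1, so replicate 2 was lower there too. The 2 genes seen in exactly eIF3a replicate 1 and eIF3b replicate 2, EIF3E and EIF3H, shared a pattern held by 2.64% of all genes.

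The part of each gene under peaks was measured as the share of its exon bases, taken over the union of the exons of all its transcripts. The median share over the 10 genes was 2.01% ± 1.27 (SD, n = 2 lists) for METTL16, 0.770% ± 1.09 for eIF3a and 1.49% ± 0.535 for eIF3b. By list it was 1.11% and 2.91% for METTL16, 1.54% and 0% for eIF3a, and 1.11% and 1.86% for eIF3b, in replicates 1 and 2. Over the 10768 gene names that matched the annotation the medians were 1.12% and 1.75%, 4.05% and 0%, and 4.73% and 3.71%. These names all had a peak in some list, unlike EIF3L. The eIF3 genes lay below all genes in eIF3a replicate 1 and in both eIF3b lists, close to them in METTL16 replicate 1 and above them in METTL16 replicate 2. Without EIF3C, whose reads cannot be separated from those of a copy, the medians were 0.694% for METTL16, 0.432% for eIF3a and 0.599% for eIF3b. Leaving out any 1 gene that lies above a median lowers it, so this drop is not particular to EIF3C. On the exons of the canonical transcripts alone the medians were 6.42% for METTL16, 4.97% for eIF3a and 8.18% for eIF3b, so that eIF3b and not METTL16 was the highest. The medians over all genes were not computed on canonical exons, so the comparison with all genes holds for the union of exons only.

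**Figure D1:**
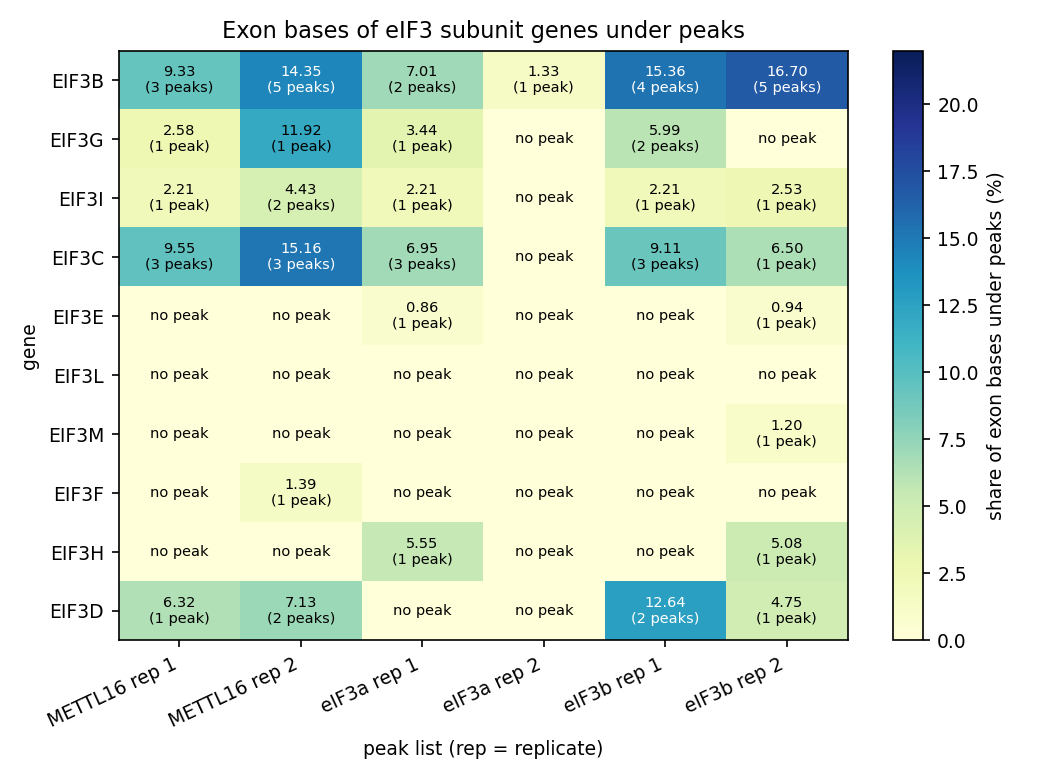
Share of exon bases under peaks (colour and number, in %) for each eIF3 subunit gene (rows) in each of the 6 peak lists (columns), with the number of peaks in brackets. EIF3B is filled in every list, from 1.33% in eIF3a replicate 2 to 16.7% in eIF3b replicate 2, and EIF3L is empty in all.

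EIF3B, the scaffold of the b-g-i module with an RNA recognition motif and a WD40 propeller, carried 20 of the 56 peaks. It was 1 of the proteins pulled down, and the eIF3b samples came from cells that also expressed it from a transgene. Its exon share under peaks was 9.33% and 14.4% in the METTL16 lists, 7.01% and 1.33% in the eIF3a lists and 15.4% and 16.7% in the eIF3b lists. Both eIF3b values lay above both METTL16 values, by 4.19 percentage points on average, and above both eIF3a values, by 11.9 points. The exact two-sided permutation p was 0.333 for each, the smallest that 2 lists against 2 can give. Neither order was particular to EIF3B. Of 10768 genes, 35.8% had both eIF3b values above both METTL16 values, and 21.5% had them above both eIF3a values. The difference from METTL16 was 1.68 points without METTL16 replicate 1, and with peaks of at least 4-fold alone it turned to -3.33 points.

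The main EIF3B peak lay at the 5′ end of the transcript, over the start codon, which is at base 96 of the 3096-base transcript. In both METTL16 lists it spanned bases 13 to 611, across exons 1 and 2, with a fold enrichment of 5.32 and 5.7. In the eIF3b lists it spanned bases 43 to 641 in replicate 1 and 13 to 641 in replicate 2, with 6-fold and 3.34-fold enrichment. In eIF3a replicate 1 it was confined to exon 1, bases 73 to 581, with 2.84-fold enrichment. In eIF3a replicate 2 only bases 372 to 491 were called, at 1.34-fold, and these left out the start codon. They are the 120 bases in capitals above, chr7:2355198-2355317, and the first peak of each other list contained them whole.

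Ranked by the smallest p-value of each gene, EIF3B stood at place 46 of 5829 genes and 74 of 6337 in the METTL16 lists, and at place 259 of 8166 and 3375 of 5226 in the eIF3a lists. In the eIF3b lists it stood at place 2 of 8063 and 2 of 7570. Its place by fold enrichment was much less extreme. The largest EIF3B fold lay at the percentile 62.5 and 63.1 of all genes in the METTL16 lists, 30.9 and 1.01 in the eIF3a lists, and 60.3 and 40.1 in the eIF3b lists. In the eIF3b lists EIF3B thus combined a middling ratio with a p-value among the smallest, and the read numbers behind both are unknown.

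Beyond the first peak, the lists differed in the region of EIF3B they covered. The share of the 2445 coding bases under peaks was 23.6% and 34.6% in the METTL16 lists, 19.9% and 4.91% in the eIF3a lists, and 51.2% and 55.5% in the eIF3b lists. The share of the 556 bases of the 3′ UTR was 32.4% and 64.7% for METTL16, 21.8% and 0% for eIF3a, and 13.5% and 11.0% for eIF3b. The eIF3b lists were therefore the highest in the coding sequence and lay below both METTL16 lists in the 3′ UTR. How many of all genes had either order was not computed, so neither can be called particular to EIF3B.

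Of the EIF3B bases under peaks, 90.7% and 90.4% were coding in the eIF3b lists and 68.7% and 65.7% in the METTL16 lists, with no overlap (exact two-sided permutation p = 0.333). The same order, both eIF3b lists above both METTL16 lists, held for 9.77% of the 3880 genes with a peak in these 4 lists. The eIF3b cells expressed tagged eIF3b from a transgene, whose RNA shares the coding sequence with the gene and could be counted with it in RIP and input. Per the study's methods only the coding sequence, with the tag at its N terminus, was cloned for this purpose, so the transgene does not carry the UTRs of EIF3B. Its part in the coding peaks was not tested. The 5′ UTR of EIF3B, 95 bases long, was also under eIF3b peaks, for 55.8% and 87.4% of its bases.

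**Figure D2:**
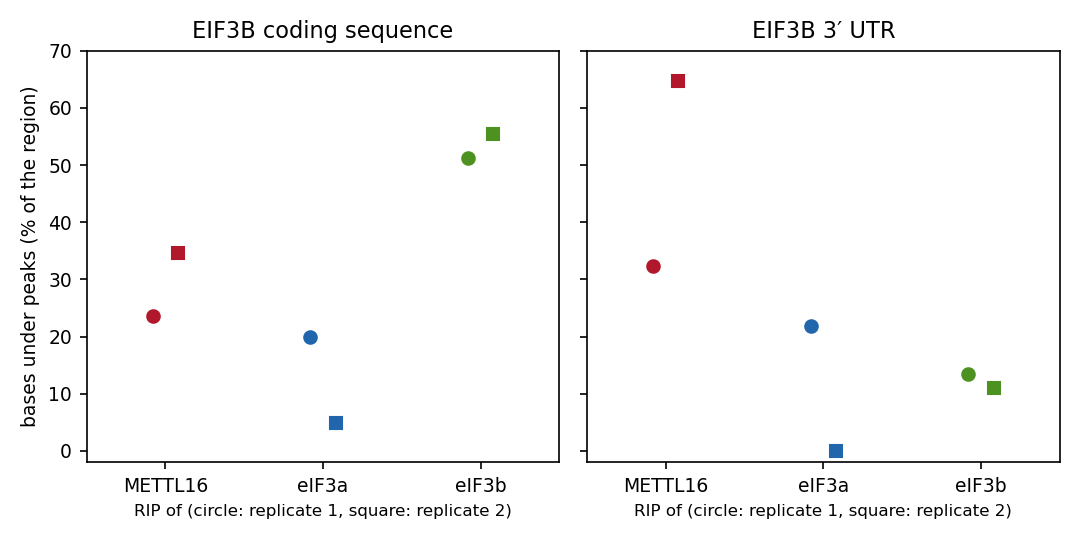
Share of the bases of the EIF3B coding sequence (left) and 3′ UTR (right) under peaks, in %, for the RIP of METTL16, eIF3a and eIF3b, with replicate 1 as circles and replicate 2 as squares. The eIF3b samples lie at 51.2% and 55.5% in the coding sequence, above all others, and at 13.5% and 11.0% in the 3′ UTR, below both METTL16 samples.

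Coding peaks over exons 10 to 11 or 12 of EIF3B appeared in 4 lists. In METTL16 replicate 1 this peak had 60 bases and 1.27-fold enrichment, and in replicate 2 it had 180 bases and 1.52-fold. In the eIF3b lists it had 330 bases at 1.37-fold and 240 bases at 1.29-fold. A further coding peak that began in exon 14 was seen in METTL16 replicate 2 (151 bases, 1.54-fold) and in both eIF3b lists (211 bases at 1.46-fold and 420 bases at 1.35-fold). All of these were under 2-fold. In the last exon, exon 19, METTL16 replicate 2 had a 3′ UTR peak of 210 bases at 3.78-fold, where replicate 1 had 180 bases at 1.65-fold. eIF3a replicate 1 had 121 bases at 1.56-fold and eIF3b replicate 2 had 61 bases at 1.37-fold within the same stretch. METTL16 replicate 2 had a further 3′ UTR peak of 150 bases at 1.83-fold in this exon. In eIF3b replicate 1 a peak of 241 bases over exons 17 to 19 and the stop codon, at 1.43-fold, held 75 bases of 3′ UTR.

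The 3 genes with a peak in all 6 lists whose fold percentiles lay nearest to those of EIF3B, among 2729 such genes, were RNF187, FKBP8 and SP5. Their mean absolute differences from EIF3B over the 6 lists were 2.53, 4.03 and 4.19 percentile points.

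EIF3G, the RNA recognition motif subunit of the module, had peaks in coding sequence only. METTL16 replicate 1 had 90 bases over exons 4 to 6 at 1.22-fold, and METTL16 replicate 2 had 416 bases over exons 5 to 8 at 1.51-fold. eIF3a replicate 1 had 120 bases over exons 7 and 8 at 1.25-fold. eIF3b replicate 1 had 89 bases over exons 5 and 6 at 1.27-fold and 120 bases in exon 7 at 1.31-fold. No base of EIF3G was under a peak in more than 3 lists. Its exon share ran from 0% in eIF3a replicate 2 and eIF3b replicate 2 to 11.9% in METTL16 replicate 2.

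EIF3I, the WD40 subunit that completes the module, had the most sharply recurring position. The same 211 bases at the 3′ end of the transcript, chr1:32231394-32231604 in the 3′ UTR of exon 11, were called in METTL16 replicates 1 and 2, eIF3a replicate 1 and eIF3b replicate 1. The fold enrichment there was 2.88, 2.06, 1.75 and 1.86. eIF3b replicate 2 had a peak of 241 bases with the same end, at 1.88-fold. METTL16 replicate 2 alone added a peak of 211 bases in coding exons 3 to 5, at 1.97-fold. In these lists EIF3I was thus marked at its 3′ end and not at its start codon, unlike EIF3B.

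**Figure D3:**
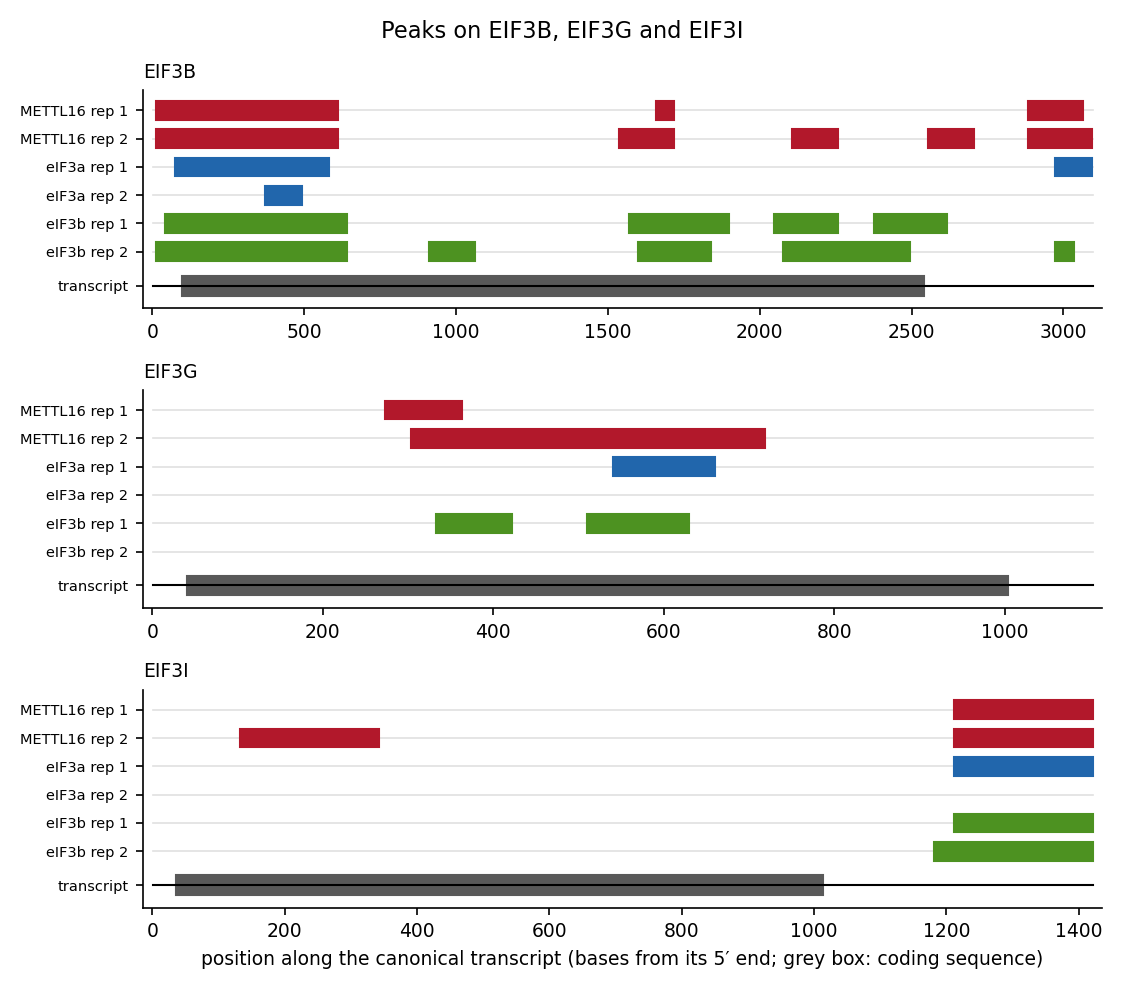
Peaks (bars, coloured by protein) on the canonical transcripts of EIF3B, EIF3G and EIF3I in each of the 6 lists, along the position in bases from the 5′ end, with the coding sequence as a grey box. EIF3B has 1 peak near the 5′ end in each of the 6 lists and 14 peaks further along, EIF3G peaks lie within the coding sequence, and 5 EIF3I peaks end at the last base of the transcript.

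EIF3C, the largest of the PCI subunits examined, has a near-identical copy, EIF3CL, on the same chromosome. Of the 2811 windows of 100 bases along the EIF3C transcript, 97.0% occurred unchanged in the EIF3CL transcript, so reads from the pair cannot be separated over most of their length. The lists also named 13 peaks EIF3CL, but all 3162 bases of these lay on the exons of EIF3C, none on those of EIF3CL, and 3043 were also in peaks named EIF3C. The peaks of both names therefore described the same place, and EIF3CL was not counted as a further gene.

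The recurring EIF3C position was in the first part of the coding sequence. Its largest peak covered 450 bases over exons 5 to 9 at 2.31-fold in METTL16 replicate 1 and 569 bases over exons 6 to 11 at 2.01-fold in replicate 2. In eIF3a replicate 1 it covered 330 bases over exons 5 to 8 at 1.5-fold. In the eIF3b lists it covered 420 bases at 3.19-fold and 450 bases at 1.68-fold, both over exons 5 to 9. All 5 peaks held the 210 bases shown above.

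A smaller EIF3C peak from exon 2 to exon 4 was called in 4 lists, with 150 bases at 1.21-fold and 270 bases at 1.89-fold in the METTL16 lists, 90 bases at 1.13-fold in eIF3a replicate 1 and 150 bases at 1.15-fold in eIF3b replicate 1. It reached the start codon in METTL16 replicate 2 only. METTL16 replicate 2 was also the only list with a peak over the EIF3C stop codon, 211 bases at 1.82-fold, and eIF3a replicate 1 had 61 coding bases in the same exons at 1.14-fold. The exon share of EIF3C was 9.55% and 15.2% for METTL16, 6.95% and 0% for eIF3a, and 9.11% and 6.50% for eIF3b.

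EIF3E, EIF3L and EIF3M are the other PCI subunits examined. EIF3E had 1 peak each in eIF3a replicate 1 (326 bases, 1.66-fold) and eIF3b replicate 2 (355 bases, 1.91-fold), both over exons 11 to 13 and the stop codon, with 326 bases in common. EIF3M had 1 peak of 89 coding bases over exons 10 and 11 at 1.25-fold, in eIF3b replicate 2. EIF3L, with 13 exons on chromosome 22, had no peak under its own name in any list.

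Of the MPN subunits, EIF3H had coding peaks over exons 5 to 8 in eIF3a replicate 1 (357 bases, 1.55-fold) and eIF3b replicate 2 (327 bases, 1.65-fold), the second contained in the first. EIF3F had 1 peak, in METTL16 replicate 2, with 210 bases in exon 1 over the start codon and 1.81-fold enrichment. EIF3E and EIF3H were thus seen in the same pair of lists, while neither had a peak in the other replicate of either protein. Within each gene the place recurred between the lists, but it differed between the genes. It was exons 11 to 13 with the stop codon in EIF3E, and coding exons 5 to 8 without the stop codon in EIF3H.

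EIF3D, the subunit that can bind the mRNA cap, was marked at its stop codon in both METTL16 lists and both eIF3b lists. This peak had 241 bases at 1.91-fold and 211 bases at 1.75-fold for METTL16, and 241 bases at 1.55-fold and 181 bases at 1.39-fold for eIF3b. METTL16 replicate 1 and eIF3b replicate 1 had identical ends there. Further coding peaks did not recur, with 61 bases in exon 8 at 1.16-fold in METTL16 replicate 2 and 241 bases over exons 5 to 8 at 1.36-fold in eIF3b replicate 1. The exon share of EIF3D was 6.32% and 7.13% for METTL16, 0% in both eIF3a lists, and 12.6% and 4.75% for eIF3b.

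**Figure D4:**
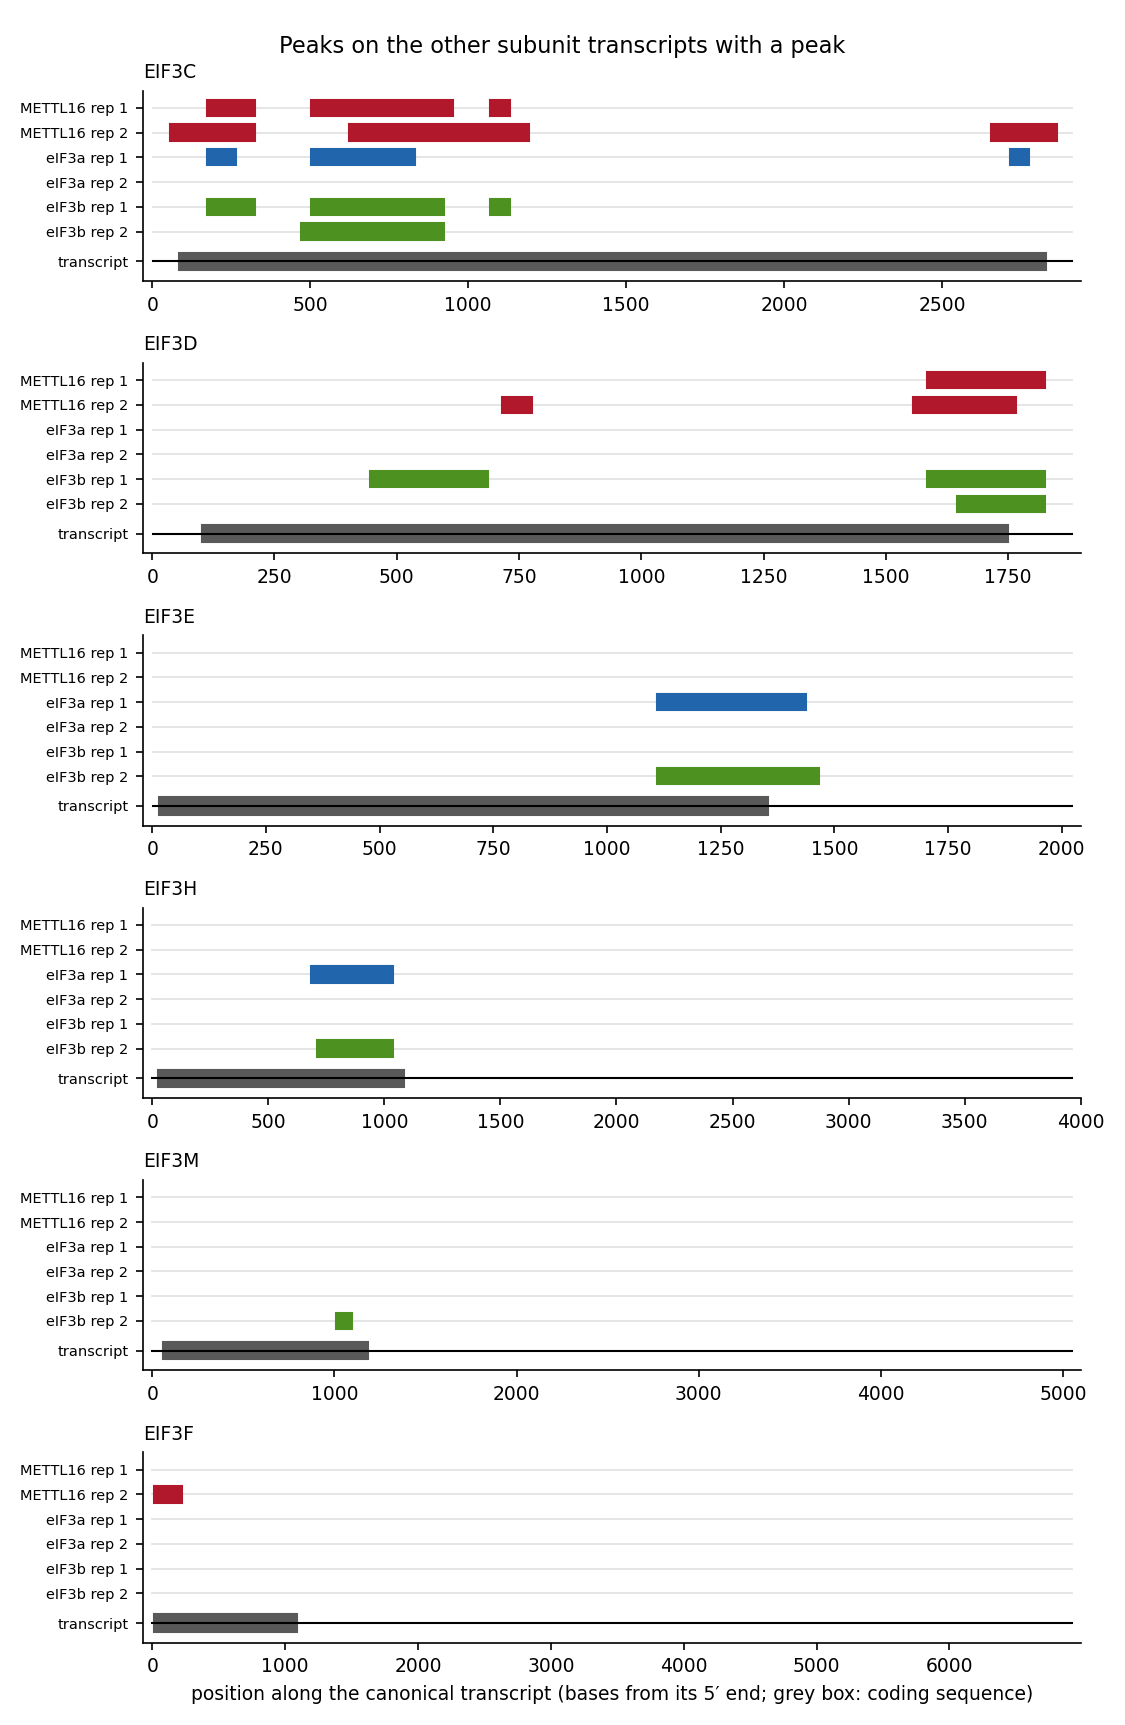
Peaks (bars, coloured by protein) on the canonical transcripts of EIF3C, EIF3D, EIF3E, EIF3H, EIF3M and EIF3F in each of the 6 lists, along the position in bases from the 5′ end, with the coding sequence as a grey box. EIF3C peaks recur in the first part of the coding sequence in 5 lists, EIF3D peaks at the stop codon in 4 lists, and EIF3E and EIF3H each have a peak in the same pair of lists.

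To ask whether a protein's lists covered a gene more than those of another, the exon share was compared for each of the 10 genes and each of the 3 pairs of proteins, 30 comparisons in all. All genes are here again the matched names with a peak in some list, which EIF3L lacked. EIF3B, EIF3C and EIF3D were higher in both METTL16 lists than in both eIF3a lists, 3 of 10 genes where 12.8% of all genes were, and none was lower in both, where 21.8% of all genes were. EIF3C was higher in both METTL16 lists than in both eIF3b lists, 1 of 10 where 4.93% of all genes were, and EIF3B was lower, 1 of 10 where 35.8% of all genes were. EIF3B and EIF3D were lower in both eIF3a lists than in both eIF3b lists, 2 of 10 where 21.5% of all genes were, and none was higher, where 6.12% of all genes were. The smallest exact two-sided permutation p was 0.333 and every Benjamini-Hochberg adjusted p was 1, so no difference for a single gene passed the test, and with 2 lists a group none could. The 3 pairs of proteins share their lists and are not independent of each other.

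Enrichment on these transcripts was low. The 56 peaks ran from 1.13-fold to 6-fold, 11 reached 2-fold and 3 reached 4-fold, and these 3 were the first peak of EIF3B in both METTL16 lists and in eIF3b replicate 1. The largest fold of a gene was below the median over all genes of the same list for 4 of 5 eIF3 genes in METTL16 replicate 1, 5 of 6 in METTL16 replicate 2, 6 of 6 and 1 of 1 in the eIF3a lists, and 4 of 5 and 7 of 7 in the eIF3b lists. The list medians were 4.06 and 4.24, 4 and 3.62, and 4.64 and 4.

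**Figure D5:**
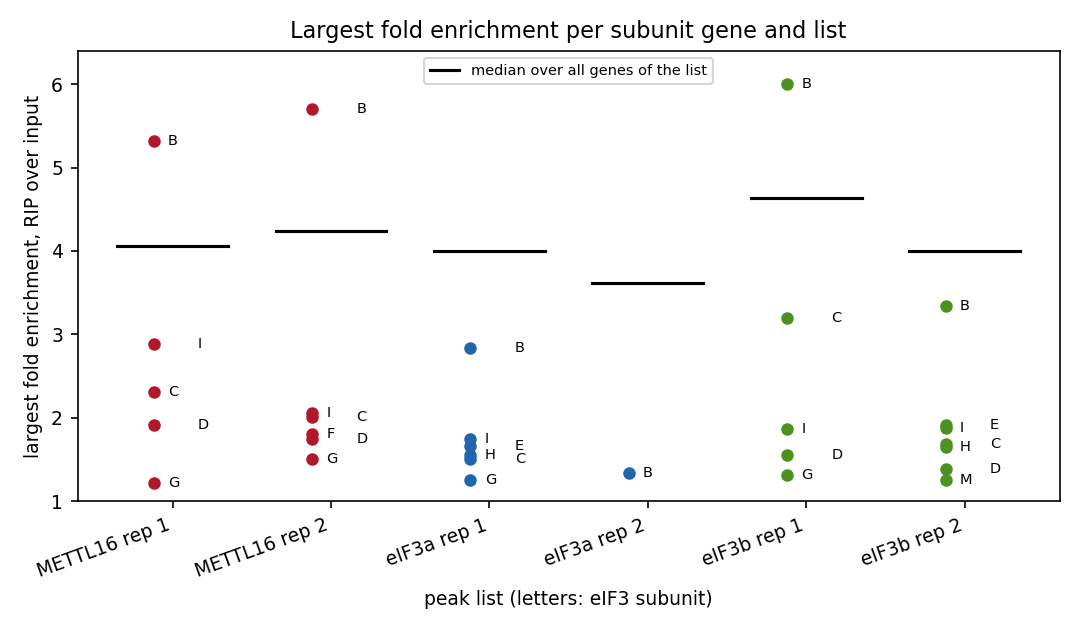
Largest fold enrichment of RIP over input of each eIF3 subunit gene with a peak (points, labelled by subunit letter) in each of the 6 lists, and the median of the same value over all genes of the list (black line). EIF3B is the only gene above the line, in both METTL16 lists and eIF3b replicate 1.

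The peaks were 60 to 629 bases wide, with a median of 211. Of the 56, 15 lay in 1 exon and 41 crossed at least 1 splice junction. Coding sequence made up 80.6% of the bases under these peaks, summed over the lists, against 48.6% of the bases of the 10 canonical transcripts. By list it was 73.0% and 79.7% for METTL16, 79.4% and 100% for eIF3a, and 85.7% and 81.7% for eIF3b. Over all genes it was 62.9% and 71.4%, 60.7% and 63.5%, and 66.0% and 62.3%. In each list the eIF3 genes had the higher coding share, which was not tested. Both comparisons depend on which genes carried the peaks. EIF3B with 20 peaks and EIF3C with 13 have 2445 of 3096 and 2742 of 2910 transcript bases coding. EIF3F, EIF3M and EIF3H, with 1, 1 and 2 peaks, have 3′ UTRs of 5830, 3865 and 2876 bases. A preference for coding sequence within a gene can therefore not be read from these shares. Of the 56 peaks, 31 were wholly coding, 7 covered a start codon and 8 a stop codon.

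Bases under peaks were compared between lists over all 10 genes. METTL16 replicate 2 contained 89.7% of the bases of replicate 1, which contained 50.1% of those of replicate 2. eIF3b replicate 2 contained 67.0% of the bases of replicate 1, which contained 62.1% of those of replicate 2. The single eIF3a replicate 2 peak made up 5.65% of the bases of eIF3a replicate 1. Across proteins, eIF3b replicate 1 contained 85.3% of the METTL16 replicate 1 bases, and eIF3b replicate 2 contained 83.0% of the eIF3a replicate 1 bases. On these genes the lists of different proteins thus shared as much as replicates did in some pairs.

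The lists and the transcripts both differed in base composition. The GC content of the peak bases was 59.8% and 61.7% in the METTL16 lists and 59.0% in eIF3b replicate 1, and 54.2%, 53.8% and 54.7% in eIF3a replicates 1 and 2 and eIF3b replicate 2. The 5 genes with peaks in 4 or more lists had transcripts of 50.9% to 60.2% GC, while EIF3E, EIF3F, EIF3H and EIF3M, with peaks in 1 or 2 lists, had 37.2% to 40.2%. EIF3L, without a peak, had 48.5%. Of these 4 low-GC genes, EIF3E, EIF3H and EIF3M were called only in lists of low peak GC, and EIF3F only in METTL16 replicate 2, the list of highest peak GC. EIF3F was low in GC over its whole transcript but not in its coding sequence, which had 56.4% against 55.4% for EIF3B. Of the 210 bases of its peak, 207 were coding. The coding sequences of EIF3E, EIF3H and EIF3M had 39.8%, 46.2% and 40.8% GC. Lists of low peak GC also called genes of higher GC. eIF3a replicate 1 called EIF3B, EIF3C, EIF3G and EIF3I, and eIF3a replicate 2 called EIF3B and none of the low-GC genes. The part of base composition in these results was not tested.

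The sequence ACAGAGA, found in the U6 RNA site that METTL16 methylates, was searched for on the transcript strand. EIF3B, EIF3E, EIF3L and EIF3M each held it once in their canonical transcript, at base 1101 in EIF3B. None of the 56 peaks covered it. Of the peaks of a list that were searched, the share holding it was 3.29% and 3.26% for METTL16, 3.89% and 5.34% for eIF3a, and 4.07% and 4.49% for eIF3b. The searched peaks numbered 13032 and 12936, 21357 and 12742, and 20448 and 19713, fewer than each list held. Peak width, with list medians of 180 to 210 bases, was not taken into account.

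The remaining subunits and related factors were looked up in the same way. EIF3A and EIF3J, the loosely bound subunit, had peaks in all 6 lists, and EIF3K had 1, in METTL16 replicate 2. Of 19 factors that work with eIF3 in initiation, 10 had a peak in both METTL16 lists, 8 in both eIF3a lists, 13 in both eIF3b lists and 7 in all 6. For 9 subunits of the proteasome lid these counts were 4, 3, 5 and 3, and for 9 subunits of the COP9 signalosome they were 2, 1, 3 and 1. The shares of all genes are those given above for the same counts. They are of genes with a peak in some list, which all 19 factors had, but only 7 of the lid subunits and 5 of the COP9 subunits.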

How the data were processed

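The 6 peak lists of the RIP samples were used, 1 per sample, and the 6 inputs entered only through the peak calling. Per the labels and the study's methods, the authors depleted ribosomal RNA, made stranded libraries, mapped reads with STAR to GRCh38 and used exomePeak with its defaults to call RIP peaks against input. The labels give each RIP sample an input of the same protein and replicate number. Versions, the annotation, and whether each list was called against that input alone are not given in the sources used here. For each peak the authors deposited exon blocks, a gene name, a p-value, log10 p and log10 false discovery rate (used as a score) and a fold enrichment, which is a ratio. All are the authors' values and served only for description, ranking and filtering within a list. The deposited lists hold no counts, so depth is unknown and no interval is given.

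Peaks were taken by gene name, and positions are on GRCh38, counted from 1, with GENCODE release 44 and each gene's canonical transcript. Of 10830 names, 10325 matched a current symbol, 443 an older one and 62 none. Shares of exon bases were compared over lists with exact two-sided permutation tests. The 2 replicates of a protein are biological per the study's supplement. The 10 genes were fixed by name, and all are described. The genes and lists were chosen with earlier results of these data known. Python 3.11.15 was used, with positions tested on simulated data. Alternatives were a fold of at least 4, the 5000 peaks of smallest p-value per list, each list left out, peaks placed by position (at least 50% of bases on the gene's exons, same strand), a peak in either replicate, EIF3C left out, canonical exons and the replicate number as a block.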

Additional observations from a re-analysis of the deposited data

How the results depend on the processing

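Of 70 values recomputed for 9 results, 50 kept their direction and, for counts, stayed within 1.5 times or, for medians, within the SD of the replicates, 19 moved further and 1 reversed. Part of the 50 was fixed in advance. With 2 lists a protein, leaving out 1 list always moves a median by less than this SD. It also cannot reverse an EIF3B difference between lists that do not overlap, and the replicate block leaves that difference unchanged. The eIF3a SD of 1.09 exceeds its median of 0.770%, so a fall to 0% counted as within it. At a fold of at least 4 the counts of eIF3 genes with a peak in both replicates were 1 for METTL16 and 0 for eIF3a and eIF3b, that in all 6 lists was 0, and the median exon shares were 0% for METTL16 and eIF3b. At that fold the EIF3B difference between eIF3b and METTL16 turned from 4.19 to -3.33 percentage points, because eIF3b replicate 2 then had no EIF3B peak. With 5000 peaks per list, the eIF3a and all-list counts were 0 and the eIF3b median was 0.235%. With a peak in either replicate the counts were 6 for eIF3a and 8 for eIF3b. With EIF3C left out the medians were 0.694% for METTL16 and 0.599% for eIF3b. On canonical exons, which leave out the exon bases found only in other transcripts of a gene, the medians were 6.42%, 4.97% and 8.18% for METTL16, eIF3a and eIF3b. Placing peaks by position changed no value.

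Leaving out 1 list at a time gave 5 to 6 genes for METTL16, 1 to 6 for eIF3a, 5 to 7 for eIF3b and 1 to 3 in all remaining lists. The count of 6 for eIF3a and of 3 in all remaining lists came without eIF3a replicate 2, and that of 7 without eIF3b replicate 1. The medians ran from 1.11% to 2.91% for METTL16, 0% to 1.54% for eIF3a and 1.11% to 1.86% for eIF3b. The EIF3B difference ran from 1.68 points (without METTL16 replicate 1) to 6.70 against METTL16, and from 9.02 to 14.7 against eIF3a. With the replicate number as a replicate block it stayed at 4.19 and 11.9 points with an exact p of 0.5. Same-numbered lists of METTL16 and the eIF3 proteins deviated in opposite directions over the 10 genes (cosine -0.75 with eIF3a and -0.49 with eIF3b). Those of eIF3a and eIF3b hardly deviated together (0.011). Whether same-numbered lists shared more than a number was not tested and cannot be told from these values. With 2 lists a protein and no counts, neither the error of a single peak nor a small difference could be measured.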
